A study of Homo sapiens with 4 samples.

Results

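Genes of polyamine synthesis, of its antizyme control and of polyamine breakdown were followed as a set of 10: ODC1, AMD1, SRM, SMS, OAZ1, OAZ2, AZIN1, SAT1, SMOX and PAOX. They were taken by gene name from the 60612 genes listed in each of the deposited tables, and all 10 were found. The levels below are what brought these genes forward, so their differences are given as descriptions and are not tested here. Messenger RNA had been measured by poly(A)-selected, paired-end sequencing in HCT116 and RKO, which are established human colorectal cancer cell lines. The groups were HCT116 with AVEN overexpression (HCT116 OE), HCT116 wildtype for AVEN (HCT116 WT), RKO with AVEN overexpression (RKO OE) and RKO wildtype for AVEN (RKO WT), with 1 library each. AVEN encodes an inhibitor of caspase activation, and the design asked what differs when it is overexpressed. The sources used here do not state how it was overexpressed, or whether in a clone or a pool of cells. As each group had 1 library, differences within a line could not be checked on replicates, and "higher" and "lower" describe the libraries sequenced.

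Polyamines are small, positively charged molecules that bind nucleic acids and are needed for growth. Ornithine decarboxylase (ODC1) makes putrescine, S-adenosylmethionine decarboxylase (AMD1) supplies aminopropyl groups, and spermidine synthase (SRM) and spermine synthase (SMS) add those groups in turn. Antizymes (OAZ1, OAZ2) bind ornithine decarboxylase and send it to the proteasome, the antizyme inhibitor (AZIN1) takes them up in its place, and SAT1, SMOX and PAOX acetylate or oxidise polyamines in the return direction. Intestinal epithelium and colorectal tumours are known for high polyamine turnover, and ODC1, SRM and AMD1 are textbook targets of the transcription factor MYC.

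Levels are the authors' FPKM, that is fragments per length of transcript, scaled to sequencing depth. The smallest recurring FPKM values put 1 FPKM at an estimated 18.6 to 20.8 fragments for a transcript of 1 kilobase, depending on the library, and a count of 0 allows up to 0.145 to 0.161 FPKM for such a transcript. AVEN itself was higher in OE in both lines, on few fragments. In HCT116 it stood at 2.96 FPKM in OE against 1.53 in WT, 1.94-fold higher (1.16 to 3.41), on about 48 and 22 fragments. Its RKO values were 4.43 FPKM in OE against 1.34 in WT, 3.32-fold higher (2.04 to 5.80), on about 68 and 21 fragments. Of 11 epithelial and colorectal markers, 6 stood at 1 FPKM or more in each HCT116 library and 4 in each RKO library, where CDH1 and KRT19 were under 0.1 FPKM, and CDX1 and CEACAM5 were listed at 0.0001 FPKM, the lowest value in the tables, in all 4 libraries. None of 5 adipose markers reached 1 FPKM in any library, against 1 of 5 fibroblast markers in the HCT116 libraries (COL1A1) and 0 in RKO. Of 7 blood and endothelial markers only CD68 did, at 195 FPKM in RKO OE and 197 in RKO WT. Intervals in brackets are 95% counting intervals on estimated fragments and cover counting error only.

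The 10 genes spanned a wide range of abundance. ODC1 and OAZ1 were among the most abundant everywhere, ODC1 lying above 98.1% to 98.3% of the genes at 1 FPKM or more in each library and OAZ1 above 96.9% to 97.6%. PAOX was the lowest of the set in all 4 libraries, at 0.912 FPKM in HCT116 OE, 1.01 in HCT116 WT, 1.37 in RKO OE and 1.76 in RKO WT. The genes with the widest spread over the libraries were SAT1, with a 21.3-fold range, OAZ2, with a 3.53-fold range, and SRM, with a 2.79-fold range. OAZ1 had the narrowest, at 1.24-fold. OAZ2 stood next to the bottom of the set in both WT libraries and above AMD1 in both OE libraries.

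**Figure D1:**
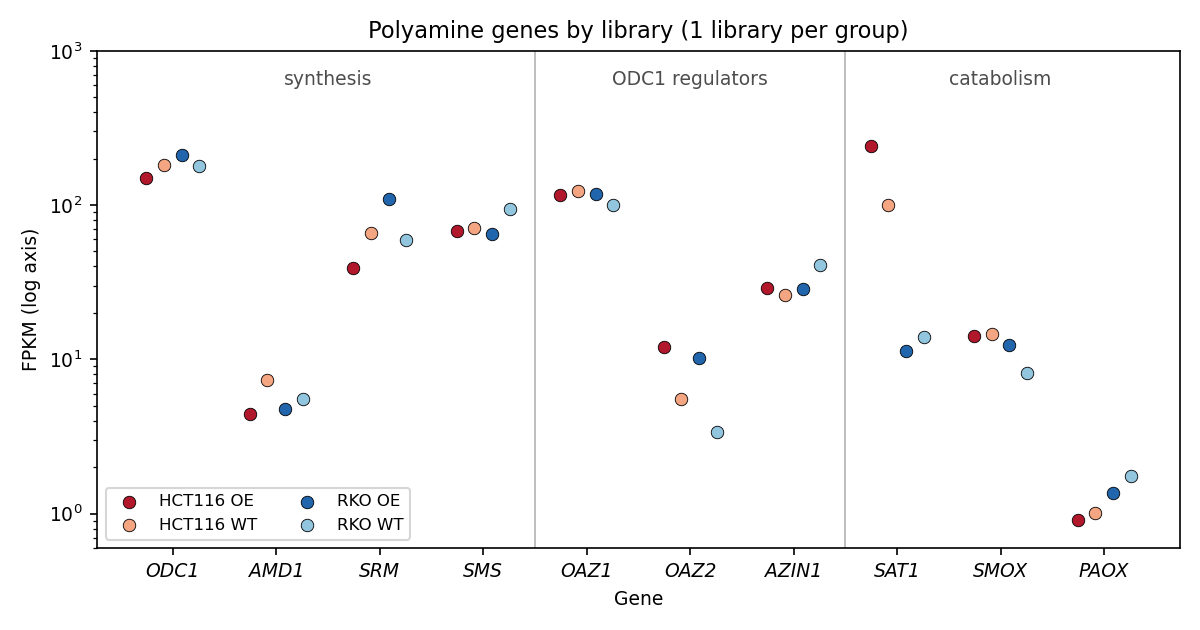
FPKM of each of the 10 genes (x axis) in the 4 libraries (coloured points, log y axis), grouped by role; every point is 1 library. SAT1 splits by line, from 241 FPKM in HCT116 OE to 11.3 in RKO OE, while both OE points of OAZ2 (11.99 and 10.2 FPKM) lie above both WT points (5.54 and 3.40).

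Among the regulators of ornithine decarboxylase, OAZ2 was higher with AVEN overexpression in both lines, while OAZ1 and AZIN1 differed little or in opposite directions. OAZ2 (ENSG00000180304) is a minus-strand gene at chr15:64687573-64703281 (GENCODE, GRCh38). It stood at 11.99 FPKM in HCT116 OE against 5.54 in HCT116 WT, a 2.16-fold difference (1.79 to 2.61), resting on about 392 and 163 fragments. Its RKO values were 10.2 FPKM in OE against 3.40 in WT, a 2.995-fold difference (2.40 to 3.74), on about 315 and 110 fragments. Taken over both lines, the lowest OE value of OAZ2 was 1.84 times its highest WT value. How many of all genes are separated in this way was not counted, so nothing is read from the separation. These are bulk libraries, so fewer cells with a transcript and less of it per cell cannot be told apart. On the log2(FPKM + 1) scale the OAZ2 difference was 0.99 in HCT116, with 120 of 11333 genes above it, and 1.35 in RKO, with 79 of 11007 above it. In the authors' deposited table OAZ2 in RKO was the only 1 of the 10 genes marked as significant in either line, with a p-value of 0.0110 and a q-value of 0.826, and in HCT116 it had a p-value of 0.101 and a q-value of 1.

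OAZ1, the more abundant antizyme gene, stood at 117 FPKM in HCT116 OE against 124 in HCT116 WT and at 118 in RKO OE against 100.4 in RKO WT. These are folds of 0.939 (0.889 to 0.991) and 1.18 (1.11 to 1.25), both small beside the difference of OAZ2. OAZ1 shares 236 bases of exon with JSRP1 on the opposite strand, which stood at 2.02, 2.67, 11.4 and 14.7 FPKM in HCT116 OE, HCT116 WT, RKO OE and RKO WT, and strand use is not stated. OAZ2 made up 9.32% of the summed antizyme FPKM in HCT116 OE against 4.27% in HCT116 WT, and 7.91% in RKO OE against 3.27% in RKO WT. AZIN1, the decoy that frees ornithine decarboxylase from antizymes, stood at 28.8 FPKM in HCT116 OE against 26.3 in HCT116 WT, with a counting interval that includes equality (0.986 to 1.22). In RKO it was lower, at 28.6 FPKM in OE against 40.9 in WT, a fold of 0.701 (0.638 to 0.771).

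Antizyme mRNAs are translated through a change of reading frame: the ribosome skips a base at a stop codon, more often when polyamines are plentiful. The site is shown because OAZ1 and OAZ2 share it while their mRNA levels differed unlike each other. GENCODE writes the skip as a gap of 1 base between adjoining exons, at position 2271443 of chromosome 19 (plus strand) for OAZ1 and at position 64691515 of chromosome 15 (minus strand) for OAZ2, both in GRCh38. The lines give 15 coding bases on either side of the gap from the GENCODE transcript models, with the codons that flank the skipped base in capitals.
OAZ2: cctctgtggtgcTCCGATgcccctcaccca
OAZ1: cctcggtggtgcTCCGATgcccctcaccca
The models of the 2 genes match at this site in 29 of 30 bases, and FPKM values hold no measure of how often the frame is changed.

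The genes that build polyamines did not move as a group. In HCT116, ODC1, AMD1, SRM and SMS were all lower in OE, and in RKO ODC1 and SRM were higher while AMD1 and SMS were lower. SRM (ENSG00000116649, chromosome 1, 11054584 to 11060024, minus strand) differed most and in opposite directions. It stood at 39.2 FPKM in HCT116 OE against 65.9 in HCT116 WT, 1.68-fold lower (1.504 to 1.87), and at 109 FPKM in RKO OE against 59.6 in RKO WT, 1.84-fold higher (1.68 to 2.002). The WT libraries of the 2 lines thus lay close together for SRM, and the OE libraries lay on either side of them. Only 226 of 11333 genes had a lower log2(FPKM + 1) difference than SRM in HCT116 (-0.73), and 193 of 11007 had a higher one in RKO (0.87).

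ODC1, the first enzyme of the route, followed the same directions with smaller differences. It stood at 150.3 FPKM in HCT116 OE against 181 in HCT116 WT, 1.201-fold lower (1.15 to 1.25), and at 211 FPKM in RKO OE against 178 in RKO WT, 1.19-fold higher (1.15 to 1.23). AMD1 stood at 4.45 FPKM in HCT116 OE against 7.30 in HCT116 WT, 1.64-fold lower (1.40 to 1.91). Its RKO values were 4.75 FPKM in OE against 5.55 in WT, with an interval that includes equality (0.727 to 1.003 as a fold). AMD1 is far less abundant per length than ODC1, which exceeded it 33.7-fold in HCT116 OE, 24.7-fold in HCT116 WT, 44.5-fold in RKO OE and 32.0-fold in RKO WT. SMS stood at 67.7 FPKM in HCT116 OE against 71.5 in HCT116 WT, a fold whose interval includes equality (0.882 to 1.02), and at 65.0 FPKM in RKO OE against 94.7 in RKO WT, 1.46-fold lower (1.36 to 1.56).

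MYC stood at 5.57 FPKM in HCT116 OE against 39.6 in HCT116 WT and at 10.6 FPKM in RKO OE against 8.08 in RKO WT. As deposited, its sign was thus that of SRM, ODC1, OAZ1 and SMOX in both lines, and that of AMD1, SMS and PAOX in HCT116 alone. The HCT116 intervals of SMOX, SMS and PAOX and the RKO intervals of AMD1 and PAOX include equality. After correction for G and C share and transcript length, the log2 difference of AMD1 in RKO was 0.23, of the same sign as MYC there (0.26). The share of all genes with these signs was not counted. Between the WT libraries MYC was 4.90-fold lower in RKO (4.25 to 5.67). SRM stood at 59.6 FPKM in RKO WT against 65.9 in HCT116 WT, and ODC1 at 178 against 181. AMD1 was 1.32-fold lower in RKO WT (1.14 to 1.52), at 5.55 FPKM against 7.30. Whether MYC had a part in any of these levels was not tested. The promoter of SRM is printed because it holds the E-box that MYC is known to bind (CACGTG), and those of OAZ2 and SAT1 because these genes differed most. RefSeq windows of GRCh38.p14 were found for 7 of the 10 genes, as 10 windows. In the 250 bases before the start site, CACGTG occurred in SRM, 199 bases before the start, and in 1 of the ODC1 windows, against 6.34% of 35116 windows of that length. TGAGTCA or its reverse complement, the AP-1 letters, occurred in OAZ2, 241 bases before the start, against 4.2% of windows. CCAAT or its reverse complement occurred in at least 1 window of SRM, SAT1, AMD1, OAZ1 and SMS, against 32.0% of windows. The AMD1 match is in a window beginning at position 110814367 of chromosome 6. That is upstream of the GENCODE start of AMD1 at 110874770, so it belongs to another RefSeq start. None of the member windows held TGACGTCA, the cyclic AMP element, against 1.65% of windows. No motif overlapped another in the printed windows, and a match of letters does not show that a factor binds there.

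The windows are 250 bases long, written 5′ to 3′ on the gene's strand and ending just before the RefSeq start site, with matches in capitals. They lie at chr15:64703282-64703531 (minus strand) for OAZ2, chr1:11060019-11060268 (minus strand) for SRM and chrX:23782923-23783172 (plus strand) for SAT1. The G and C share was 67.2% for OAZ2, 82.0% for SRM and 66.4% for SAT1. The last lines give the CACGTG matches of ODC1 with 12 bases on either side, at chr2:10448024-10448053 and chr2:10447990-10448019 (minus strand), the second of them just past the start site of its window. Both lie inside the GENCODE span of ODC1, which begins at position 10448504 on the minus strand. The first is therefore upstream only of the RefSeq start of its window.
OAZ2: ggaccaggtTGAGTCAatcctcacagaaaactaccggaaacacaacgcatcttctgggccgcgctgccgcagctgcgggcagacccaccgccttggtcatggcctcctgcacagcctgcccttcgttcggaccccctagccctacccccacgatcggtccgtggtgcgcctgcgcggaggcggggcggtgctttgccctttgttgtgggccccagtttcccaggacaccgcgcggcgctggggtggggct
SRM: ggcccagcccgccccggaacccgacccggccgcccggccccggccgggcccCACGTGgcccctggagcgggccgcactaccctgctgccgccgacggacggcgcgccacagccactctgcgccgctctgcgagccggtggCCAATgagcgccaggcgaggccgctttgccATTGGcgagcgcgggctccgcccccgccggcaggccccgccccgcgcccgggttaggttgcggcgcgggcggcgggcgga
SAT1: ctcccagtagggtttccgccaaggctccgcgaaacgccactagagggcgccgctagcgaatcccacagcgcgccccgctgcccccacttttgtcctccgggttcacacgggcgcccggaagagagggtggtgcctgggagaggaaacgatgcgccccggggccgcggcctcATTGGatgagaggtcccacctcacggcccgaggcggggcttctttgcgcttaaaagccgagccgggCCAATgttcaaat
ODC1, upstream match: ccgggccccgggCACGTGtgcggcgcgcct
ODC1, match past the start: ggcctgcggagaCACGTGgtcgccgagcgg

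Among the genes of polyamine breakdown, SAT1, which encodes the acetyltransferase that marks spermidine and spermine for export or oxidation, was by far the most variable. SAT1 (ENSG00000130066, X chromosome, 23783173 to 23786226, plus strand) stood at 241 FPKM in HCT116 OE against 99.5 in HCT116 WT, 2.42-fold higher (2.29 to 2.57), on about 4338 and 1608 fragments. Its RKO values were 11.3 FPKM in OE against 13.9 in WT, a fold of 0.813 (0.671 to 0.987), on about 193 and 247 fragments. HCT116 OE thus had the highest SAT1 level of the 4 libraries, and SAT1 was the most abundant of the 10 genes there, against rank 3 in HCT116 WT, rank 7 in RKO OE and rank 6 in RKO WT. On the log2(FPKM + 1) scale the HCT116 difference was 1.27, with 77 of 11333 genes above it. In the authors' deposited table SAT1 in HCT116 had a p-value of 0.0595 and a q-value of 1.

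SMOX, which oxidises spermine directly to spermidine, stood at 14.2 FPKM in HCT116 OE against 14.5 in HCT116 WT, with an interval that includes equality (0.845 to 1.12). In RKO it was 1.52-fold higher (1.28 to 1.81), at 12.3 FPKM in OE against 8.10 in WT. PAOX, the peroxisomal oxidase of acetylated polyamines, rested on 23 to 44 fragments per library. Its folds were 0.906 (0.481 to 1.67) in HCT116 and 0.777 (0.482 to 1.26) in RKO, so no difference was detectable at this depth.

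**Figure D2:**
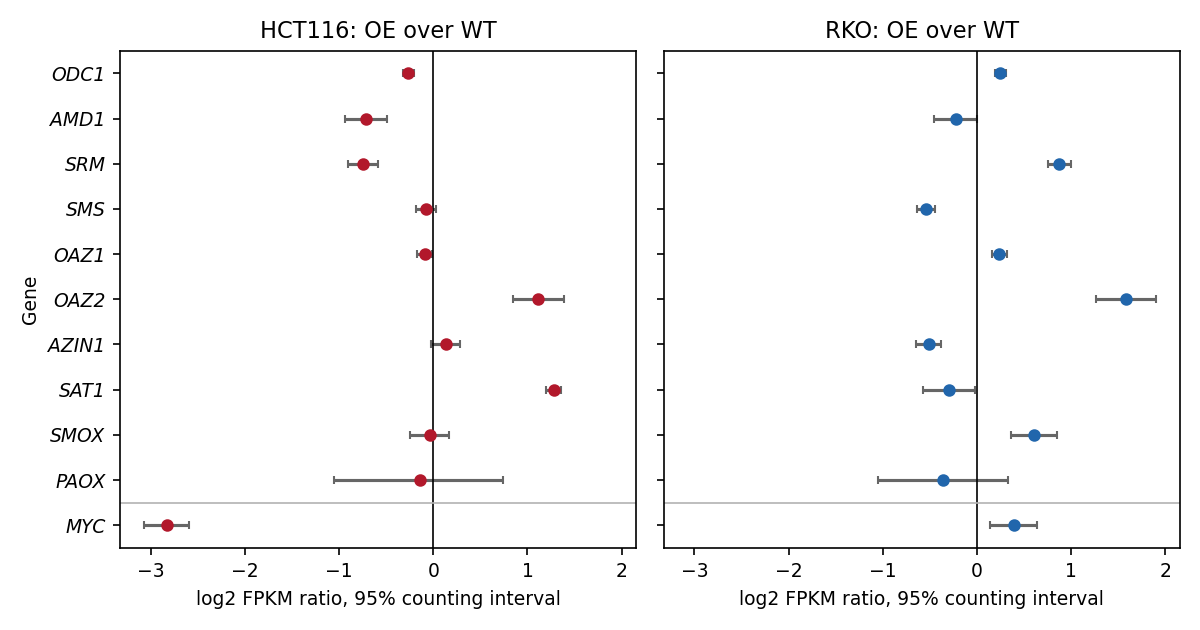
log2 ratio of FPKM in OE over WT (x axis) for each of the 10 genes and MYC (rows), HCT116 on the left and RKO on the right; points are the ratio of 2 libraries and bars are 95% counting intervals, which hold no replicate error. OAZ2 lies right of 0 in both panels, SRM and SAT1 change side, and PAOX has the widest bars.

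Ratios between the groups of genes within a library followed from these values. SAT1, SMOX and PAOX summed to 0.979 times the FPKM of ODC1, AMD1, SRM and SMS in HCT116 OE, against 0.354 times in HCT116 WT, and to 0.0640 times in RKO OE, against 0.0704 times in RKO WT. SAT1 supplied 94.1% of that breakdown sum in HCT116 OE, 86.5% in HCT116 WT, 45.3% in RKO OE and 58.5% in RKO WT. The ratio of SRM to SMS was 0.579 in HCT116 OE against 0.922 in HCT116 WT, and 1.68 in RKO OE against 0.629 in RKO WT, so RKO OE was the only library with more SRM than SMS. The antizyme genes OAZ1 and OAZ2 summed to 0.718 times ODC1 and AZIN1 in HCT116 OE against 0.627 in HCT116 WT, and to 0.536 times in RKO OE against 0.475 in RKO WT. With OAZ1 left out for the exon it shares with JSRP1, that ratio was 0.0669 in HCT116 OE against 0.0268 in HCT116 WT. In RKO it was 0.0424 in OE against 0.0155 in WT. OAZ2 is then the only antizyme gene left, so this form mainly restates the OAZ2 difference given above and is no separate support.

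**Figure D3:**
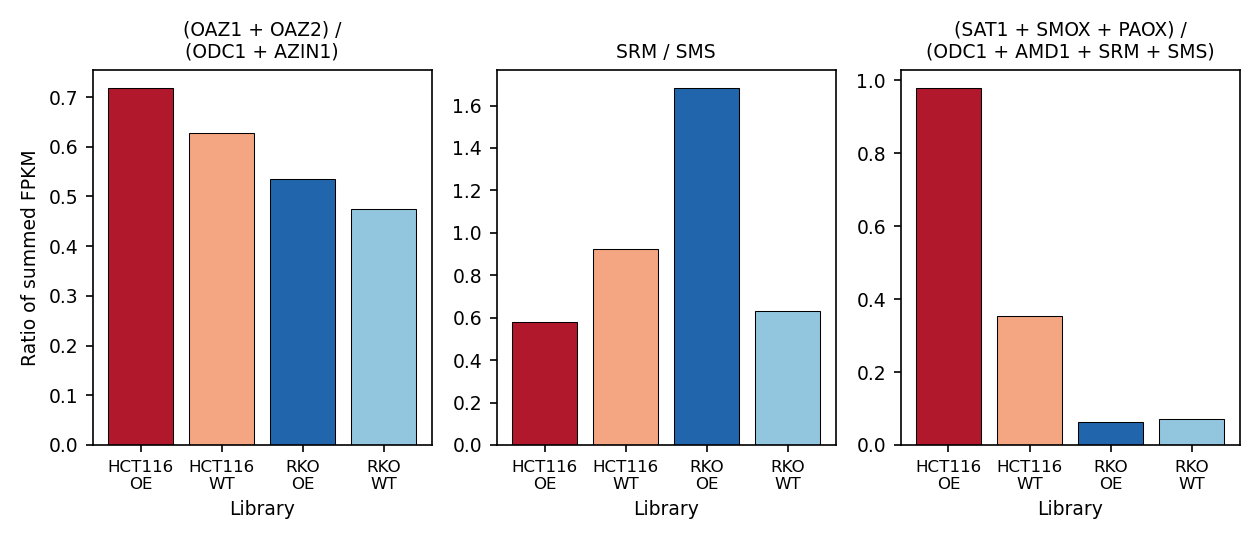
Ratios of summed FPKM within each library (bars, y axis from 0; 1 library per bar, no error bars): antizyme genes over ODC1 and AZIN1, SRM over SMS, and breakdown genes over synthesis genes. The breakdown over synthesis ratio is 0.979 in HCT116 OE, against at most 0.354 in the other libraries, and the SRM over SMS ratio is 1.68 in RKO OE.

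Taken over the set, 9 of the 10 genes had a mean of at least 1 FPKM in HCT116 (all but PAOX) and 10 in RKO. In HCT116, 3 of the 9 had a positive log2(FPKM + 1) difference and 6 a negative one, with a median of -0.08 against 0.01 over all 11333 genes. In RKO, 5 were positive and 5 negative, with a median of 0.02 against -0.09 over all 11007 genes. A difference of at least 2-fold on that scale was reached by SAT1 in HCT116, 1 of 9 where 2.05% of all genes reached it (1.02% in each direction), and by OAZ2 in RKO, 1 of 10 where 3.25% did (1.3% higher and 1.95% lower in OE). These differences chose the set, so nothing is read from the counts. OAZ2 in HCT116 lay just under this limit, and with a pseudocount of 0.1 in place of 1 its difference was 1.10 and lay past it. In 6 of the 10 genes the sign of the difference was opposite in the 2 lines (ODC1, OAZ1, AZIN1, SRM, SAT1 and SMOX). Among genes measured in both lines, which leaves out PAOX, that is 6 of 9, where 58.9% of all 9887 genes had opposite signs. The HCT116 intervals of AZIN1 and SMOX include equality. In 4 it was the same (positive for OAZ2, negative for AMD1, SMS and PAOX). Among these 4, the intervals of SMS in HCT116, AMD1 in RKO and PAOX in both lines include equality. AMD1 in RKO was positive (0.23) after correction for G and C share and transcript length.

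**Figure D4:**
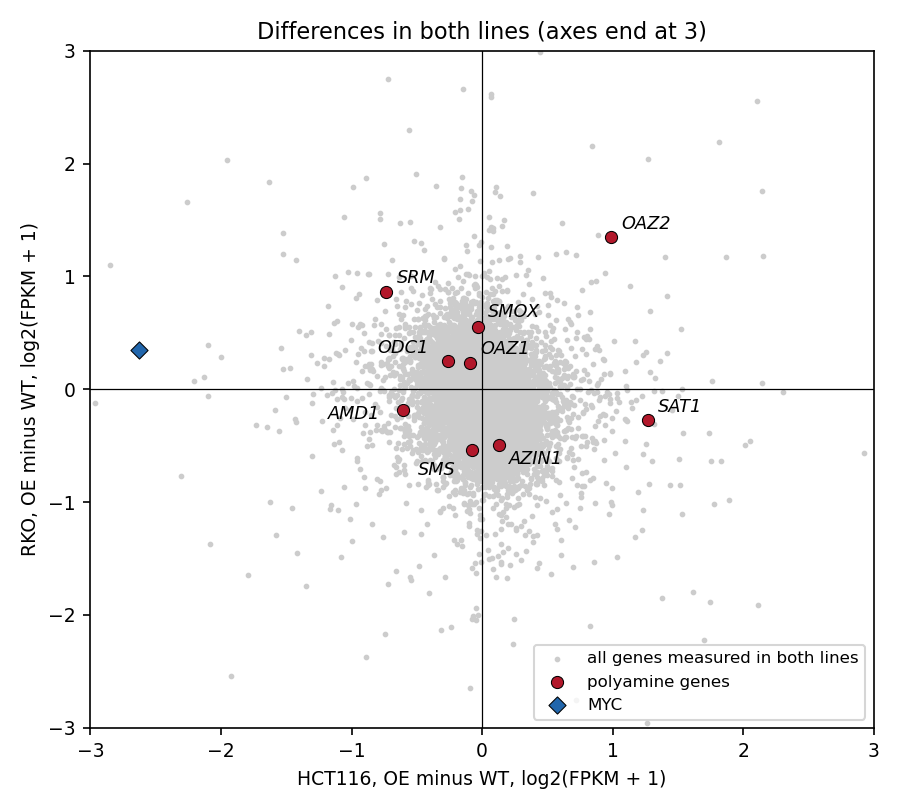
Difference of OE and WT on the log2(FPKM + 1) scale in HCT116 (x axis) and RKO (y axis) for all genes measured in both lines (grey), for 9 of the polyamine genes (red; PAOX was too low in HCT116) and for MYC (blue diamond); genes beyond the ends of the axes are not drawn. OAZ2 lies at 0.99 and 1.35 in the upper right, SRM at -0.73 and 0.87 in the upper left and SAT1 at 1.27 and -0.28 on the right.

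In RKO the differences over all genes increased with the G and C share of the transcripts (Spearman rho of 0.548 across genes, which are not independent replicates, against -0.124 in HCT116). The polyamine genes with the most G and C in their transcripts were SRM (63.7%), PAOX (63.2%), SMOX (59.8%) and OAZ1 (59.1%), and all but PAOX were higher in RKO OE. Those with the least were AMD1 (37.9%), AZIN1 (42.5%) and SAT1 (43.9%), and all 3 were lower there. After correction for G and C share and transcript length, the RKO difference of SRM was 0.63 in place of 0.87, that of SMOX 0.42 in place of 0.55, that of OAZ1 0.10 in place of 0.24, that of AZIN1 -0.18 in place of -0.50 and that of SAT1 -0.07 in place of -0.28. The AMD1 difference in RKO changed sign, to 0.23 from -0.19 as deposited. Those of ODC1 (0.33 in place of 0.25) and PAOX (-0.39 in place of -0.22) grew, and that of SMS was -0.49 in place of -0.54. What lies behind the relation to G and C share was not tested. OAZ2 was 1.39 after correction in RKO and 0.98 in HCT116, about as large as without it, and SRM in HCT116 was -0.63.

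Between the lines without overexpression, SAT1 set the lines apart more than any other gene of the set. SAT1 was 7.15-fold lower in RKO WT than in HCT116 WT (6.25 to 8.21), and only 228 of 11560 genes had a lower log2(FPKM + 1) difference than its -2.75. It was the only one of the 10 genes past 2-fold in this comparison, where 20.3% of all genes were (10.7% higher and 9.55% lower in RKO WT). SMOX was 1.79-fold lower in RKO WT (1.52 to 2.13) and OAZ2 1.63-fold lower (1.27 to 2.09), while AZIN1 was 1.56-fold higher (1.41 to 1.72), SMS 1.33-fold higher (1.24 to 1.42) and PAOX 1.75-fold higher (1.03 to 3.02). After correction for G and C share and length the log2 difference of AZIN1 was 0.35 in place of 0.62, and that of SMS was 0.27 to 0.28 when centred, rescaled or corrected, in place of 0.40. ODC1 stood at 178 FPKM in RKO WT against 181 in HCT116 WT, within counting error as deposited, while the same 3 alternatives gave it -0.16 to -0.15 in place of -0.02. Mitochondrial genes made up 32.8% of summed FPKM in RKO WT against 44.7% in HCT116 WT, and the median difference over all genes was 0.14. Rescaled to equal sums outside the mitochondrial genome, SAT1 differed by -2.88.

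Of 35 other genes of polyamine metabolism and transport, 23 had a mean of at least 1 FPKM in HCT116 and 24 in RKO. None of them differed by 2-fold or more between OE and WT in either line on the log2(FPKM + 1) scale, where 2.05% of all genes did in HCT116 and 3.25% in RKO. In a limma fit of all genes with line as a block and Benjamini-Hochberg adjustment, 0 of 24 passed for OE against WT, where 0.121% of 11525 genes did, and 1 (PYCR1) had an unadjusted p under 0.05, where 3.51% did. For a list of this length these counts are near the shares over all genes. Their median log2(FPKM + 1) difference was 0.0006 in HCT116 and -0.0013 in RKO. Farthest up in HCT116 were PYCR1, of proline synthesis (121 FPKM in OE against 66.3 in WT), ATP13A3, a polyamine transporter of endosomes (5.26 against 2.49, or 2.11-fold without the pseudocount), and SLC18B1, a vesicular polyamine transporter (7.95 against 6.27). Farthest down there were DOHH, the last enzyme in making hypusine from spermidine on EIF5A (4.73 FPKM in OE against 8.70 in WT), SLC12A8 (1.80 against 2.64) and EIF5A itself (255 against 313).

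In RKO the highest differences of this list were those of SLC3A2, the heavy chain of amino acid transporters (31.9 FPKM in OE against 20.4 in WT), AGMAT, an agmatinase-like gene (10.9 against 7.68), and ATP13A2, the lysosomal polyamine exporter (14.2 against 10.3). The lowest were those of ARG2, the mitochondrial arginase that makes ornithine (8.97 FPKM in OE against 17.9 in WT), MAT2B, a regulatory subunit of methionine adenosyltransferase (9.45 against 15.1), and ENOPH1, of methionine salvage (17.5 against 25.9). After correction for G and C share and length, the difference of MAT2B was -0.21 in place of -0.62 and that of ENOPH1 -0.19 in place of -0.54, while ARG2 stood at -0.82 in place of -0.92. PYCR1 was higher in OE in both lines, DOHH was 1.84-fold lower in HCT116 OE and stood at a fold of 0.992 in RKO, and EIF5A was lower in HCT116 OE and higher in RKO OE, at 410.4 FPKM against 322 in RKO WT. Between the lines, 8 of these 24 genes passed limma with Benjamini-Hochberg adjustment, 6 of them higher in RKO, and 9 had an unadjusted p under 0.05. Over all genes 30.4% passed and 40.3% had such a p, so the list lay near the share over all genes.

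**Figure D5:**
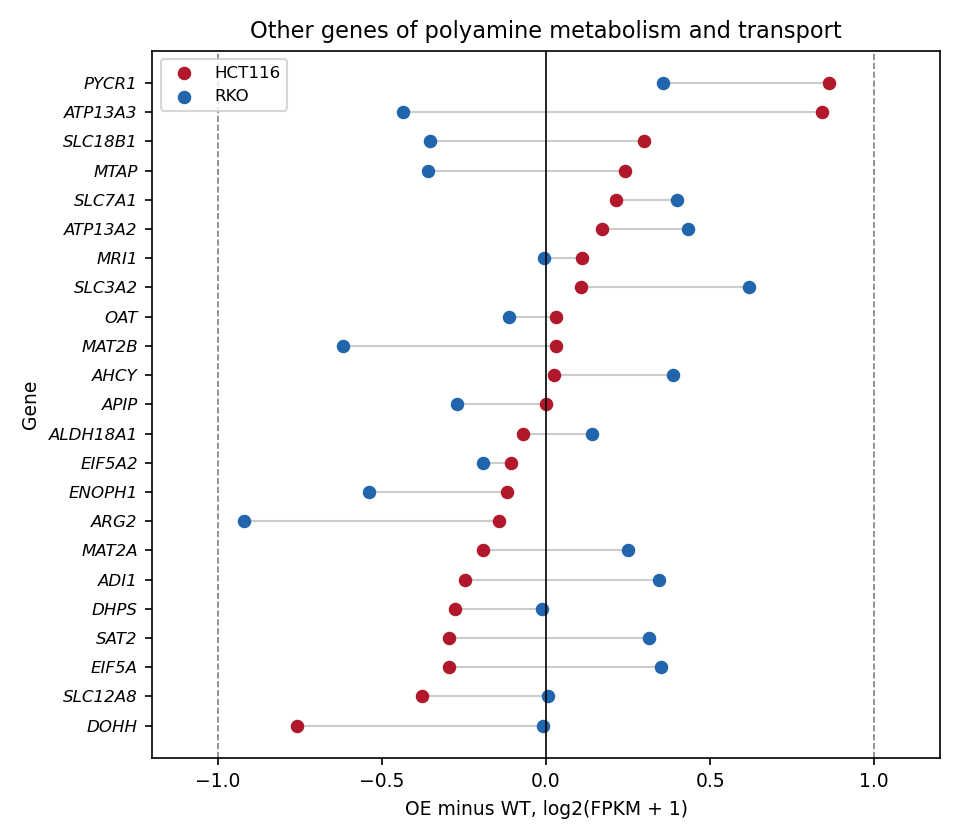
Difference of OE and WT on the log2(FPKM + 1) scale (x axis) for the 23 other pathway genes measured in both lines (rows, ordered by HCT116), in HCT116 (red) and RKO (blue); dashed lines mark 2-fold. No gene reaches 2-fold on this scale in either line, and ATP13A3 is at 0.84 in HCT116 and -0.44 in RKO.

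The genes whose pattern over the 4 libraries was nearest to that of each of the most variable polyamine genes were found by the distance between centred log2(FPKM + 1) values among 5571 protein-coding genes. Nearest to OAZ2 were FKBP1A (0.43), C19orf48 (0.51) and CRCP (0.54). Nearest to SRM were ATAD3B (0.21), HCFC1 (0.24) and PRRC2B (0.26). Nearest to SAT1 were CDH1 (0.32), GFY (0.39) and NGFR (0.40), which are near or at the floor in RKO. SAT1 itself stood at 11.3 FPKM in RKO OE and 13.9 in RKO WT. The patterns are thus near only on this scale, where the pseudocount of 1 limits the fall of genes at the floor. CDH1, the gene for E-cadherin, stood at 17.5 FPKM in HCT116 OE against 8.25 in HCT116 WT, and at 0.00834 in RKO OE against 0.00800 in RKO WT. Distances over 4 libraries describe these libraries and carry no test.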

How the data were processed

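The authors deposited a table per line with FPKM values per gene and library and their own comparison of the 2 libraries (fold ratio, log2 fold, p-value and q-value), per the file headers. Genes without signal are listed by the authors at 0.0001 FPKM. Bowtie 0.12.2, HISAT2 2.0, StringTie 1.3.0 and a mouse genome build (mm8) are named in the submitters' processing notes, while the deposited identifiers are human. The build used, and how the authors divided fragments between overlapping genes, are not given in the sources used here.

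Groups came from the sample titles. A pseudocount of 1 was added before taking log2, so differences of low genes are understated, and genes averaging under 1 FPKM over both libraries were not tested. Depth is unknown in FPKM tables. Fragments were estimated from the commonest value in genes with 1 exon and at least 400 bases. Of the low values, 43.0% to 44.4% lay near its multiples or midway between neighbouring multiples, so the fragment numbers are approximate. Intervals (exact Clopper-Pearson, mean transcript length) cover counting error only. Without molecular identifiers, copies of a fragment could not be told apart. On log2(FPKM + 1), limma (version 3.58.1, R 4.3.3) took line and genotype as terms and a trended prior, two-sided, with 1 residual degree of freedom. For OE against WT the lines stood in for replicates. For RKO against HCT116 the OE and WT libraries of each line did so. The fit was tested on simulated data. Its p-values concern the spread between these samples only. The FPKM scale is set per library, so levels set across the 2 tables rest on it. Positions, G and C share and lengths came from GENCODE 29 (58394 of 60612 identifiers found), promoters from RefSeq on GRCh38.p14. Python 3.11.15 and scipy 1.17.1 were used.

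The members, the pathway list and the alternatives were chosen with earlier results of these data known. The rule for named genes takes all 10 members, AVEN, MYC, the 3 highest and 3 lowest of the pathway list per line, and for the 3 members of widest range the 3 nearest among protein-coding genes averaging at least 5 FPKM. JSRP1 and single marker genes outside it were named after their values were seen.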

Additional observations from a re-analysis of the deposited data

Results flagged for a closer look

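In each of these cases the sign of the difference between the only OE and WT libraries of HCT116 was opposite to that of RKO, in the values as deposited. With 1 library per group the difference between the lines was not tested. The values are the RKO difference minus the HCT116 difference on the log2(FPKM + 1) scale. Among the polyamine genes it was 1.60 for SRM (higher in RKO OE, lower in HCT116 OE), -1.54 for SAT1 (lower in RKO OE, higher in HCT116 OE), -0.63 for AZIN1, 0.58 for SMOX, 0.51 for ODC1 and 0.33 for OAZ1. After correction for G and C share and length it was 1.26 for SRM, -1.36 for SAT1, -0.29 for AZIN1, 0.42 for SMOX, 0.59 for ODC1 and 0.14 for OAZ1. AMD1 had the same sign in both lines as deposited, with a value of 0.418. After correction its signs were opposite and its value was 0.92.

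MYC had the widest value, 2.98. Among the other pathway genes it was -1.28 for ATP13A3, -0.654 for SLC18B1, -0.651 for MAT2B, 0.64 for EIF5A, 0.50 for AGMAT and 0.38 for SLC12A8. After the same correction it was -0.76 for ATP13A3, -0.25 for SLC18B1, -0.196 for MAT2B, 0.503 for EIF5A and 0.34 for SLC12A8. The RKO differences of ATP13A3 (-0.02 corrected, -0.44 as deposited) and SLC18B1 (-0.00075, against -0.35) were then close to 0. MAT2B in HCT116 (0.03) and SLC12A8 in RKO (0.005) had intervals that include equality, and after correction both had the same sign in the 2 lines (-0.018 for MAT2B in HCT116, -0.021 for SLC12A8 in RKO). AGMAT rested on an estimated 2 fragments in HCT116 OE and 3 in HCT116 WT, too few to show a sign there. As log2 ratios of OE over WT, the SRM to SMS ratio differed by 2.09 between the lines and the breakdown to synthesis ratio by -1.61.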

How the results depend on the processing

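Of 137 recomputed differences of the 10 genes, 117 moved by less than their counting interval and 20 by more, and 2 changed sign, neither of them past 2-fold: AMD1 in RKO after correction for G and C share and length (0.23) and SMOX in HCT116 when rescaled outside the mitochondrial genome (0.0016). Genes at least 2-fold apart numbered 232 in HCT116 and 358 in RKO; with a pseudocount of 0.1 they were 419 and 629, and under a minimum average of 5 FPKM 97 and 159, where fewer genes are tested. Centring on the median moved the RKO split to 171 higher and 163 lower, against 143 and 215, and the split between the WT libraries to 964 higher and 1285 lower in RKO, against 1242 and 1104. Between the WT libraries 2346 genes were 2-fold apart and 1062 under that minimum, an alternative added after the data were seen. The limma count for OE against WT (14) was 7 with a pseudocount of 0.1, 3 under that minimum, 1 after quantile normalization and 7 when rescaled, and the cause was not tested. It was 278 without a filter, where most genes have no spread at all and the fit is unreliable. The line count (3507, with 1896 higher in RKO) split into 1301 higher and 1844 lower when rescaled outside the mitochondrial genome, and was 1805 under that minimum. Leaving out OAZ1 for its exon-sharing neighbour, the antizyme ratio was 0.0669 in HCT116 OE, 0.0268 in HCT116 WT, 0.0424 in RKO OE and 0.0155 in RKO WT. OAZ2 is then the only antizyme gene in it. Libraries were paired by line in the limma fit for OE against WT; no pairing by replicate number was possible because the labels number no replicates, and none could be left out. Depth limits PAOX most.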
